A study of Danio rerio with 6 samples.

Results

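Keratins, claudins and desmosome genes were followed in caudal fins of swim-trained and control zebrafish larvae. Members were the genes whose RefSeq symbol starts with krt, cyt1, cldn, dsp, pkp, jup, ppl or evpl, followed by the end of the name, a digit or an a or b suffix. The rule found 50 of the 12900 named genes on the array, made of 18 keratins, 27 claudins and 5 desmosome genes. Of these, 38 were well above background on all 6 arrays in the trained or in the control channel. These 15 keratins, 18 claudins and 5 desmosome genes were tested among 15771 genes. Of the 15771, 9240 had a RefSeq symbol, and the others went by the array's own identifiers. Shares given over all genes include both kinds.

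Trained wild-type larvae swam in daily sessions of 3 h from day 5 to day 10 after fertilisation, and control larvae were wild type and of the same age. Each RNA pool held the caudal fins of 15 larvae. There were 2 trained pools, T2 and T3, and 2 control pools, C2 and C3. T2 was hybridised with C2 on 4 two-colour arrays (pair 2) and T3 with C3 on 2 arrays (pair 3), with the dyes swapped within each pair. Arrays of a pair share their RNA, so the replicate is the pool pair. Unless a pair or pool is named, a value is the log2 ratio of trained over control averaged over the 2 pairs, with its moderated standard error (SE) from limma. Nothing in the labels ties equal pool numbers to one clutch, and p-values measure only the spread between these pools, which may be technical. In a whole fin, fewer cells of a type and less RNA per cell cannot be told apart.

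Keratins are the intermediate filaments of epithelia. A filament is built from pairs of a type I and a type II chain, and simple epithelia, periderm and basal epidermis use different pairs. Claudins are the membrane proteins that close tight junctions and set which ions pass between cells. Desmosomes join neighbouring cells, and their plaque proteins, plakoglobin, plakophilins and plakins, tie keratin filaments to the junction.

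No member passed the test over all genes. At a Benjamini-Hochberg adjusted p under 0.05 from limma, 0 of 38 members were higher and 0 were lower, as were 0% and 0% of all genes, and the lowest adjusted p of a member was 0.751. At an unadjusted p under 0.05, 4 members lay higher and 2 lower, beside 2.17% and 1.82% of all genes, or 6 members in either direction, beside 3.99%. The values below are therefore descriptions of 2 pool pairs. The median log2 ratio was 0.09 over the keratins, -0.0025 over the claudins and 0.23 over the desmosome genes, beside 0.04 over all genes tested. In both pool pairs 18 members lay above 0 and 10 below 0, against 36.6% and 24.7% of all genes. On all 6 arrays 11 members lay above 0 and 5 below 0, against 11.8% and 8.38% of all genes. Both trained pools lay above both control pools for 11 members and below both for 6, against 23.0% and 14.0% of all genes. Among those below 0 in both pairs, cldn33b and cldn5a were kept only through the control channel, where they were higher. The gene cldn33b also stands among the members below on all 6 arrays and in both trained pools. Members were brighter than most genes, and these shares were not matched for brightness.

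**Figure D1:**
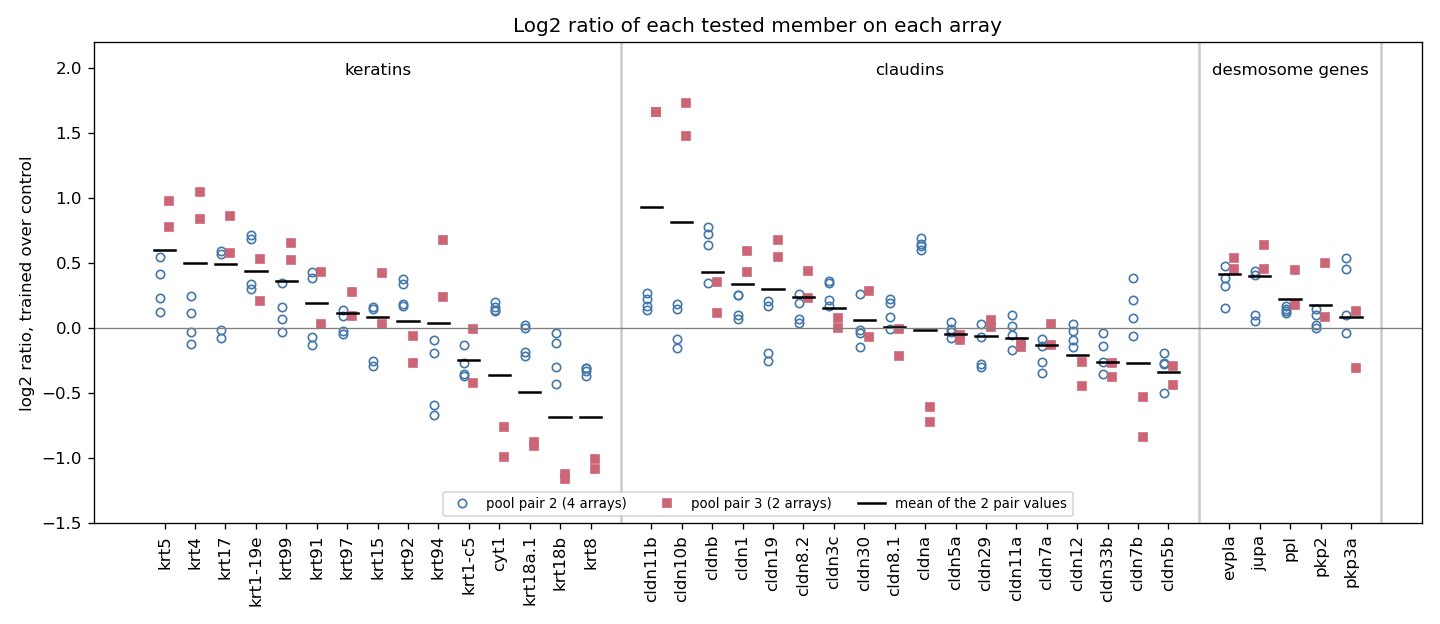
Log2 ratio of trained over control (y axis) for each of the 38 tested members (x axis), with open circles for the 4 arrays of pair 2, filled squares for the 2 arrays of pair 3 and a bar for the mean of both pair values. Members run from 0.93 for cldn11b to -0.69 for krt8, and most of the large values come from pair 3.

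The keratins divided into genes with opposite values. The type II gene krt8 and the type I genes krt18a.1 and krt18b, whose mammalian namesakes pair in simple epithelia, had the lowest ratios of the class. Which cells of the fin express them was not tested. The genes krt5, krt4, krt17 and krt1-19e had the highest. The keratin cyt1 of the periderm was at -0.36 by its brightest probe and at 0.61 by its other probe. The 3 genes krt8, krt18a.1 and krt18b were put together after their values were seen, so they get no test as a group. The same holds for krt5, krt4, krt17 and krt1-19e.

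The log2 intensity of krt8 was 12.47 and 12.22 in trained pools T2 and T3, against 12.80 and 13.26 in control pools C2 and C3. Both trained pools lay below both control pools. Its array ratios ran from -0.37 to -0.30 in pair 2 and were -1.01 and -1.08 in pair 3, with a mean of -0.69 ± 0.23 (unadjusted p = 0.0290 and adjusted p = 0.751 from limma). The difference was thus 1.26-fold on pair 2 arrays and 2.06-fold on those of pair 3, both downward.

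The type I gene krt18b was at 9.25 and 8.81 in trained pools, against 9.47 and 9.95 in control pools. Its pair values were -0.22 and -1.14, with a mean of -0.68 ± 0.26 (unadjusted p = 0.0473 and adjusted p = 0.751 from limma). Its copy krt18a.1 was at 12.15 and 12.22 in trained pools, against 12.25 and 13.11 in control pools, with a mean of -0.49 ± 0.24. For both genes the trained pools again lay below the control pools, but T2 and C2 were nearly level for krt18a.1, where the 4 arrays of pair 2 ran from -0.21 to 0.03.

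These 3 genes were read by 9 probes, and all 9 had negative values in both pool pairs, against 6941 of all 24096 kept probes. Of their 54 array values 50 were below 0, against 70546 of 144575 over all kept probes. The genes were grouped for their low values in these same pools, so the counts are a description and no further support. In pair 3 the probes ran from -2.13 to -0.89, and in pair 2 from -0.63 to -0.09. In pair 2 another krt8 probe, nearly as bright as the printed one, gave -0.55 and -0.56 with trained RNA in Cy5, but 0.03 and 0.02 in Cy3. The printed value of each gene comes from its brightest probe. The lowest probe was at -1.31 for krt8, -0.82 for krt18b and -1.35 for krt18a.1.

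Among the keratins with the highest ratios, krt5, a type II keratin known in mammals from the basal layer, was at 16.34 and 16.83 in trained pools, against 16.01 and 15.95 in control pools. Both trained pools lay above both control pools. Its 6 array ratios were all above 0, from 0.13 to 0.55 in pair 2 and at 0.98 and 0.78 in pair 3, and averaged 0.61 ± 0.20 (unadjusted p = 0.0305 and adjusted p = 0.751 from limma).

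The level of krt1-19e was 16.46 and 16.22 in trained pools, against 15.95 and 15.85 in control pools. It was the only one of these 4 genes with the larger ratio in pair 2, at 0.51 against 0.37 in pair 3, and its mean was 0.44 ± 0.17 (unadjusted p = 0.0454 from limma). For krt17, the fish namesake of a type I keratin of mammalian skin appendages, the levels were 15.62 and 15.70 in trained pools, against 15.35 and 14.98 in control pools. The dye orientation mattered here: the arrays of pair 2 gave 0.60 and 0.57 with trained RNA in Cy5, but -0.07 and -0.02 with trained RNA in Cy3. The sign in pair 2 also turned with the dye for krt4, krt15, krt18a.1, krt91, krt97, cldn10b and cldn19. For krt4 these arrays gave 0.12 and 0.25 in Cy5, but -0.03 and -0.12 in Cy3. For cldn19 they gave -0.19 and -0.25 in Cy5, but 0.17 and 0.21 in Cy3. The mean of krt17 over both orientations and pairs was 0.50 ± 0.19 (unadjusted p = 0.0489 from limma).

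The gene krt4, whose promoter is used to mark the surface layer of zebrafish epidermis, was at 15.77 and 16.47 in trained pools, against 15.72 and 15.52 in control pools. Nearly all of its mean of 0.50 ± 0.26 came from pair 3, at 0.94 against 0.05 in pair 2. The last of the 8 keratins with the smallest p, krt99, had 6.64 and 7.14 in trained pools, against 6.50 and 6.55 in control pools, with a mean of 0.36 ± 0.19. This dim gene was at 0.63 with a normexp offset of 10, 0.93 with the deposited log ratios and 0.19 with local backgrounds as deposited. Of the 15 keratins, 6 had both trained pools above both control pools and 4 had both below, against 23.0% and 14.0% of all genes.

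**Figure D2:**
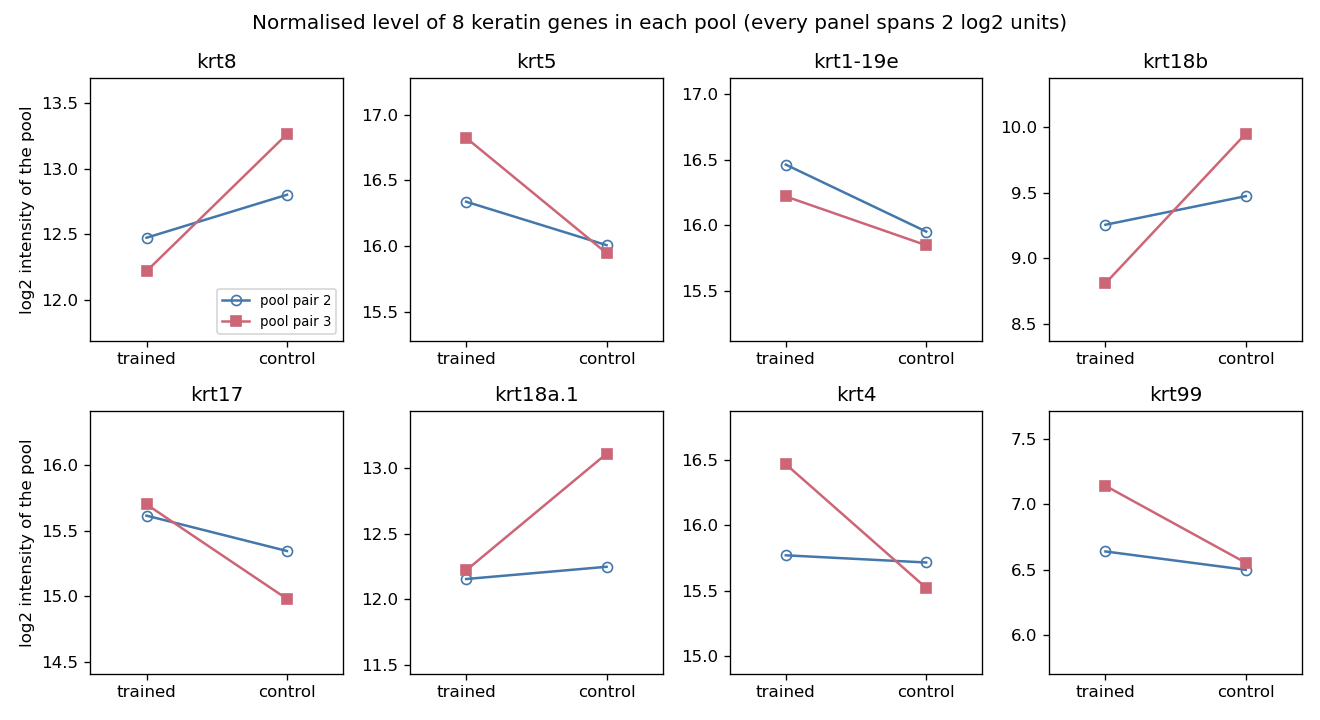
Normalised log2 intensity (y axis) of the 8 keratin genes with the smallest unadjusted p in the trained and the control pool of each pair (x axis), with open circles for pair 2 and squares for pair 3; lines join pools hybridised together. The lines of krt8, krt18b and krt18a.1 run up to the control pool and those of the other 5 genes run down to it, with the steeper line in pair 3 for all but krt1-19e.

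The remaining 7 keratins had means from -0.36 to 0.19. The lowest and the most divided among them, named after its values were seen, was cyt1, a type I keratin of the periderm. Its brightest probe had 14.86 and 14.29 in trained pools, against 14.70 and 15.17 in control pools, which gave pair values of 0.16 and -0.88. The other probe of cyt1, nearly as bright, did not turn and read 0.24 in pair 2 and 0.98 in pair 3. Another keratin that turned between pairs was krt94, at -0.38 in pair 2 and 0.46 in pair 3. In krt1-c5 all 6 array values were below 0, with a mean of -0.25.

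Some keratin genes with opposite values stood next to each other in the genome, while 1 run had only values above 0. On the RefSeq assembly GRCz12tu, krt5, krt8 and krt18a.1 are direct neighbours among protein-coding genes, in that order, with ratios of 0.61, -0.69 and -0.49. The genes krt4 and krt18b have 1 gene between them, and their ratios were 0.50 and -0.68. Another run holds krt1-19e, krt92, cyt1, krt17 and krt91, with ratios of 0.44, 0.05, -0.36, 0.50 and 0.19 and 1 other gene between krt92 and cyt1. A further run goes through krt93, krt94, krt98, krt15 and krt99 to jupa, with 2 other genes before jupa. Its tested members were all above 0, with krt94 at 0.04, krt15 at 0.09, krt99 at 0.36 and jupa at 0.40. The array design was made on an older build, so no coordinates are given.

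The higher values of krt5, krt4, krt17 and krt1-19e depended on the probe. All 15 tested keratins were read by more than 1 kept probe. In 9 of them the probes lay on both sides of 0, against 38.1% of the 5558 tested genes with more than 1 kept probe. The 15 keratins had 54 kept probes, and the comparison was not matched for the number of probes per gene. The 9 probes of krt4 ran from -0.32 to 0.50, and 5 of them were below 0. In krt5, 4 probes lay between 0.59 and 1.07 and the other two at -0.38 and -0.435. In pair 3 both of these read -0.82 or lower, and in pair 2 they read 0.06 and 0.13. Both probes of cyt1 were bright, and they read -0.36 and 0.61. In krt1-19e 3 probes lay near 0.44 and the other two at -0.08 and -0.09. The other probe of krt17, nearly as bright (15.27 against 15.43), was at 0.06, and at -0.10 in pair 3. For krt15 the brightest probe was at 0.09 and the other two at -0.60 and -0.82.

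Over the 12 keratins other than krt8 and the krt18 genes, 25 of 45 probes lay above 0 and the median probe was at 0.05. This was near all kept probes, of which 12788 of 24096 lay above 0, with a median of 0.02. When the probes of a gene were averaged, the median of the class was -0.02, krt4 was at -0.0055, krt5 at 0.35, krt17 at 0.28, krt1-19e at 0.23 and krt18a.1 at -0.93. Keratins are a family of similar sequences, and how far a probe also reads a related gene was not tested.

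**Figure D3:**
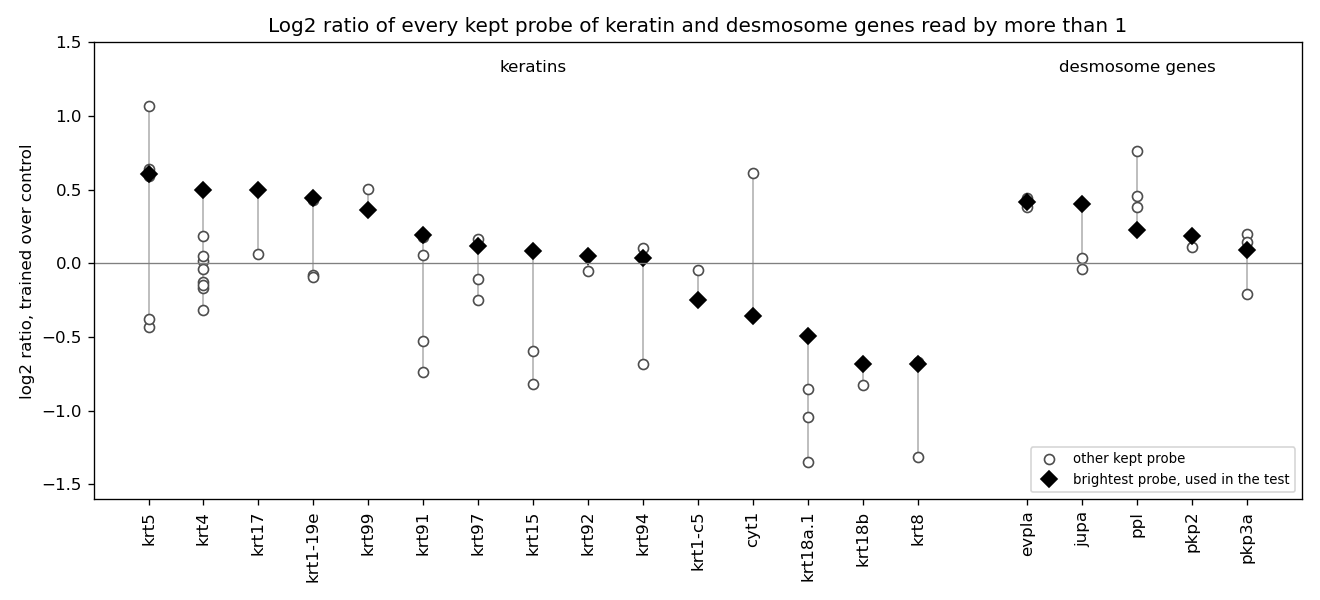
Log2 ratio of trained over control (y axis) for every kept probe of the keratin and desmosome genes (x axis), with diamonds for the brightest probe of a gene, which entered the test, and open circles for its other probes. Every probe of krt8, krt18a.1, krt18b and krt1-c5 is below 0, and those of krt5 run from -0.435 to 1.07. Every probe of evpla, ppl, pkp2, krt17 and krt99 is above 0, though the dimmer probes of pkp2 and krt99 were kept through the trained channel alone.

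The claudins centred on 0, with 9 of 18 tested genes above and 9 below. The highest were cldn11b and cldn10b, whose mammalian namesakes are a claudin of myelin and testis and a cation pore. The level of cldn11b was 8.36 and 8.97 in trained pools, against 8.16 and 7.30 in control pools. Its ratios were above 0 on all 6 arrays, 1.15-fold in pair 2 and 3.17-fold in pair 3, with a mean of 0.93 ± 0.36 (unadjusted p = 0.0482 and adjusted p = 0.751 from limma). A second kept probe of cldn11b was at -0.22, and the mean over both was 0.36. The level of cldn10b was 10.32 and 10.83 in trained pools, against 10.30 and 9.23 in control pools, so that pair 2 showed 0.02 and pair 3 showed 1.61.

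More even values between the pairs were found for cldnb and cldn1. The gene cldnb, a marker of the lateral line primordium and of epithelia in zebrafish, had 10.44 and 10.15 in trained pools, against 9.82 and 9.92 in control pools. Its pair values were 0.62 and 0.23, with a mean of 0.43 ± 0.19, and its other probe gave 0.48. The level of cldn1, the claudin on which the skin barrier of mammals depends, was 13.55 and 13.56 in trained pools, against 13.38 and 13.05 in control pools, a mean of 0.34 ± 0.18. Its other probe gave 0.29. All 6 array values were above 0 for both genes.

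Lower values were found for cldn5b, a claudin of endothelium, at 8.27 and 7.78 in trained pools, against 8.58 and 8.15 in control pools. The pools overlapped between groups, but all 6 array ratios were below 0, with pair values of -0.31 and -0.37 and a mean of -0.34 ± 0.17. The other tested gene of the endothelial list, the vessel gene plvapb, had -0.81 ± 0.24, and the summed log2 level of both was 9.08 and 8.50 in trained pools, against 9.44 and 9.25 in control pools. The endothelial markers kdrl, cdh5 and pecam1 were not tested. The part of vessel content in the value of cldn5b was not tested. The dim gene cldn33b had -0.26 ± 0.17 and was well above background on 4 of 6 arrays in the trained and 6 of 6 in the control channel. Its size depended on the background correction, at -0.55 with a normexp offset of 10 and -1.33 with the deposited log ratios.

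The last of the 8 claudins with the smallest p were cldn8.2 at 0.24 ± 0.17 and cldn19 at 0.30 ± 0.22, each with a second probe below 0. Named after its values were seen, cldna had the clearest turn between pairs. Its 4 array ratios in pair 2 ran from 0.60 to 0.69, and those in pair 3 were -0.72 and -0.60, so that its mean was -0.01. The gene cldn7b turned likewise, with 0.16 in pair 2 and -0.68 in pair 3. Across all 18 claudins the pair values had a Pearson correlation of 0.05, against 0.46 over the 15 keratins and 0.35 over all genes tested, as a description over genes that share both pool pairs.

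Of the 12 members that were not tested, 9 were claudins. The gut claudins cldn15la and cldn15lb were not well above background on any array in the trained channel, and on at most 1 in the control channel. The gene cldn3d was nearest to entering, with 5 of 6 arrays in the trained and 2 of 6 in the control channel. The others were cldn2, cldn8.3, cldn10a, cldn15a, cldn15b and cldn26, and the keratins krt93, krt95 and krt98.

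All 5 desmosome genes had a mean above 0, as had 9014 of all 15771 genes tested. The plakin gene evpla (envoplakin) had 9.15 and 9.92 in trained pools, against 8.81 and 9.41 in control pools. The ranges of the groups overlapped because the level differed between the numbers 2 and 3 more than between trained and control. Its 6 array ratios were all above 0, from 0.15 to 0.54, with pair values of 0.33 and 0.50 and a mean of 0.42 ± 0.17 (unadjusted p = 0.0555 and adjusted p = 0.751 from limma). Its 3 probes gave values between 0.38 and 0.44.

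Periplakin (ppl), the partner of envoplakin in mammalian epidermis, had 9.37 and 10.21 in trained pools, against 9.23 and 9.89 in control pools. All 6 array ratios of its brightest probe and the means of all 4 probes were above 0. Its printed value of 0.23 ± 0.17 was the lowest of its probes, which reached 0.76, from 0.09 in pair 2 and 1.43 in pair 3. On the pair 2 arrays with trained RNA in Cy5, the probes of ppl other than the brightest were below 0. The plakoglobin gene jupa, which links desmosomal cadherins to plakins, had 12.06 and 12.39 in trained pools, against 11.81 and 11.84 in control pools, and a mean of 0.40 ± 0.18. Its 2 other probes gave 0.04 and -0.04, and the mean over its 3 probes was 0.13.

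The plakophilin gene pkp2 had 8.38 and 9.27 in trained pools, against 8.31 and 8.98 in control pools, with a mean of 0.18 ± 0.17. The other plakophilin gene, pkp3a, had 11.47 and 12.37 in trained pools, against 11.21 and 12.46 in control pools. It was at 0.27 in pair 2 and -0.09 in pair 3, and its mean was 0.09 ± 0.18. Thus 4 of the 5 genes were above 0 on all 6 arrays, against 11.8% of all genes, and 0 of 5 had an unadjusted p under 0.05. Of their 16 probes 14 were above 0, against 12788 of all 24096 kept probes, with a median of 0.21. The dimmer pkp2 probe among them, at 0.11, was well above background on 6 trained but only 3 control arrays. It was thus kept only through the channel where it was higher. When arrays were only centred on their median, 12 of the 16 were above 0, against 10686 of all kept probes. Desmoplakin genes were not analysed here.

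Of the other junction genes 0 passed the test over all genes, and the difference between their lists and the members was not tested. Over all genes tested, 9014 of 15771 were above 0. In a list of further desmosome and hemidesmosome genes 4 of 17 were tested, 3 above 0 and 1 below, with a median of 0.27. This median was 0.16 when arrays were only centred on their median. The plectin gene pleca had 0.79 ± 0.37 (0.04 from pair 2, 1.54 from pair 3), with 8 probes from -0.37 to 0.97. The integrin gene itgb4 had 0.35 ± 0.22, the collagen gene col17a1a 0.20 ± 0.17 and the integrin gene itga6b -0.10 ± 0.17, below 0 in both pairs. Of 9 tested tight junction genes other than claudins 8 were above 0, with a median of 0.11. The tricellulin gene marveld2b had 0.39 ± 0.20, and the occludin genes oclna and oclnb had 0.35 ± 0.18 and 0.26 ± 0.18. Their other probes gave 0.02, 0.02 and 0.15, in that order. With arrays only centred on their median, these genes were at 0.14, 0.17 and 0.18. Among claudins with other letters 5 were tested and all 5 were above 0, with a median of 0.25, beside -0.0025 over the 18 member claudins. Above 0 in both pairs were 3 of them, and cldne, cldnf and cldni had probes on both sides of 0. When arrays were only centred on their median, the list had a median of 0.15 and cldni was at -0.13. The leading values were 1.14 ± 0.42 for cldnj, at 0.27 in pair 2 and 2.01 in pair 3, then 0.32 ± 0.17 for cldnk and 0.25 ± 0.20 for cldnf. The other probe of cldnk gave 0.04.

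Epidermal genes outside the rule were also followed, though their ratios cannot show which tissue was sampled. Of 16 such genes 11 were tested, 9 of them above 0, against 9014 of 15771 over all genes, and 6 above 0 in both pairs. Their median was 0.20 with loess and 0.08 when arrays were only centred on their median. With centring cldni went to -0.13 and cyt1l to -0.21. The genes cldne, cldnf, cldni, itgb4 and col17a1a also stand in the lists above. The adhesion gene cdh1 had 0.39 ± 0.17, the annexin gene anxa1c 0.37 ± 0.19 and itgb4 0.35 ± 0.22, while the basal cell regulator tp63 was at -0.04. The summed log2 level of the 11 genes was 16.15 and 15.95 in trained pools, against 15.95 and 15.90 in control pools. Most of this sum came from cyt1l, at 15.63 and 15.27 in trained pools, against 15.42 and 15.32 in control pools. Its mean ratio was 0.08, with 7 probes from -0.42 to 0.59. The 10 tested genes of other intermediate filaments had a median of 0.08, with the muscle filament gene desma at 0.56 ± 0.20, the neuronal filament gene inab at -0.34 ± 0.17 and the glial filament gene gfap at -0.40 ± 0.22.

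Markers of other tissues were present in the pools. Of 8 muscle genes 7 were tested, and their summed log2 level was 17.93 and 17.79 in trained pools, against 17.63 and 17.41 in control pools. Of the 7 genes 5 were above 0 and 2 below, with actn3a at 0.68, mylpfa at 0.53, myhz2 at 0.54, tnnt3b at 0.16, ckma at 0.08, acta1b at -0.09 and tpma at -0.24. The median of the muscle list was 0.16 with loess and -0.14 when arrays were only centred on their median. For 3 tested genes of ionocytes and mucous cells the summed level was 11.33 and 11.35 in trained pools, against 10.93 and 11.18 in control pools, with ca2 at 0.59, agr2 at -0.12 and atp6v1aa at 0.10; foxi3a, foxi3b and slc12a10.2 were not well above background on all arrays of either channel. For 4 tested neural genes it was 11.97 and 11.24 in trained pools, against 12.04 and 11.56 in control pools, with gfap lowest, snap25a at 0.16 and elavl3 at 0.10. For 2 tested genes of gut and liver it was 7.39 and 7.31 in trained pools, against 7.40 and 7.44 in control pools. The ratios were -0.14 for fabp2 and -0.004 for fabp10a. Both were dim, with pool levels from 6.17 to 6.38 for fabp2 and from 6.45 to 6.56 for fabp10a. The listed genes apoa4b.1, vil1, cdx1b and anpepb were not tested. The part of these tissues in the keratin, claudin and desmosome values was not tested.

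The values also depended on loess, the curve that removes the trend of the ratio with intensity within each array. Without it, when each array was only centred on its median, bright members moved down and dim members stayed. The 12 members with a mean log2 intensity over 12 moved by -0.29 at the median, with -0.07 in pair 2 and -0.50 in pair 3. The 8 members under 8 moved by -0.01. All genes tested over 12, 511 in number, moved by -0.25, and all genes under 8 by -0.04.

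Most keratins are bright, so their class was shifted most. Its median went to -0.12 with centring, with 5 genes above 0 and 10 below, against 10 above and 5 below with loess. The median of the desmosome genes was 0.075 with centring and that of the claudins was -0.02. In pair 3 alone the centred desmosome median was -0.05, with ppl at -0.05, pkp2 at -0.06 and pkp3a at -0.56, so that evpla and jupa were the desmosome genes above 0 in both pairs with centring. Of the named claudins, cldnb was at -0.14 and cldn8.2 at -0.03 in pair 3 with centring, against 0.23 and 0.33 with loess. The brightest probes of the 8 keratins with the smallest p kept their signs with either processing. Those of krt15, krt91, krt92, krt94 and krt97 went from above 0 with loess to below 0 with centring. With centring, krt8, krt18a.1 and krt18b were at -0.92, -0.72 and -0.81 and all 9 of their probes were below 0 in both pairs, while krt5, krt4, krt17 and krt1-19e were at 0.29, 0.19, 0.20 and 0.13. Their other probes went lower: with centring 7 of 9 probes of krt4, 1 of 2 of krt17, 2 of 6 of krt5 and 2 of 5 of krt1-19e were below 0. Over the 12 keratins other than krt8 and the krt18 genes, 13 of 45 probes were above 0 and 32 below with centring, and the median gene was at -0.12. Over all kept probes 10686 of 24096 were above 0 with centring. In pair 2 alone krt4 was at -0.04 with centring, against 0.05 with loess. In pair 3 alone, krt1-19e was at -0.14 with centring, against 0.37 with loess. Among the other named members, cldn1 was at 0.09 with centring, evpla at 0.28 and jupa at 0.18, and pkp3a changed sign to -0.12.

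**Figure D4:**
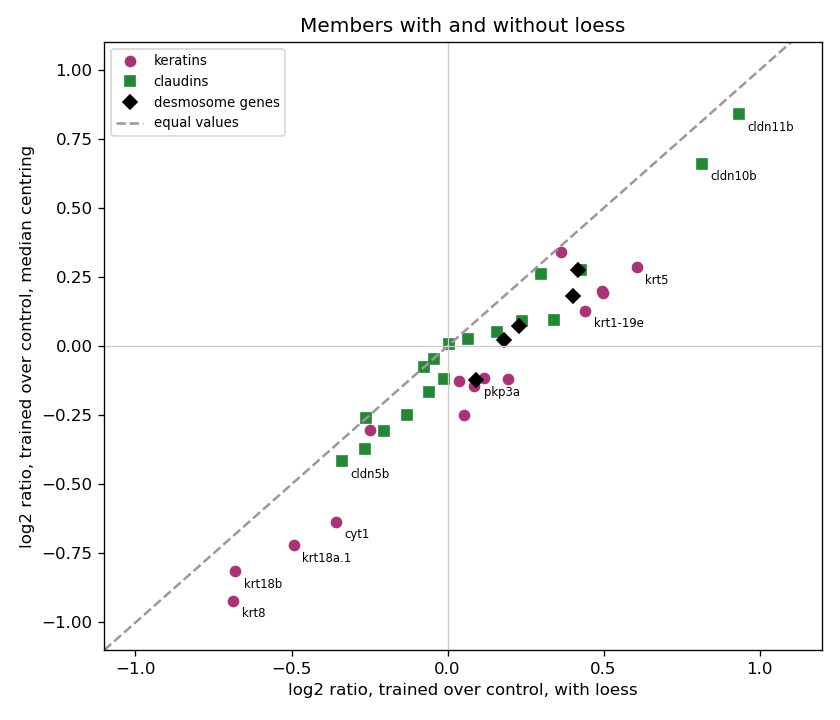
Log2 ratio of trained over control with loess (x axis) and with median centring (y axis) for the 38 tested members, with circles for keratins, squares for claudins and diamonds for desmosome genes; the dashed line marks equal values. Most points lie below the line, the exceptions being cldn33b, cldn11a and cldn8.1, krt8, krt18b and krt18a.1 stay in the lower left and krt5 falls to 0.29 but stays above 0.

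Differences were larger in pair 3. In pair 3, 13 of 38 members were at least 1.5-fold apart, against 20.9% of all genes, and in pair 2 it was 2, cldna and cldnb, against 0.640% of all genes. The SD over members was 0.245 in pair 2 and 0.63 in pair 3, against 0.15 and 0.53 over all genes. Members were brighter than most genes. A mean log2 intensity under 8 was found for 8 of 38 members, against 9549 of 15771 genes. Over 12 it was 12 members, against 511 genes. The normexp offset compresses dim ratios, and genes of equal brightness were not compared, so the part of brightness in these differences was not tested.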

How the data were processed

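Per the labels, 100 ng of pooled RNA of each kind was labelled. Agilent Feature Extraction, version 10.5.1.1 per the submitters' processing notes, turned scans into spot values. Each deposited file gives median spot and local background intensity, flags, and the log10 ratio (Cy5 over Cy3) of processed signals, which the deposited series values repeat.

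Values were computed with R 4.3.3, limma 3.58.1 and data.table (version 1.17.8). Local backgrounds over 10 median absolute deviations from an array's median were set to that median, a step taken from earlier work on these data. Then followed normexp (offset 50, which compresses dim ratios) and loess within arrays, in which control spots and outlier-flagged spots had weight 0. Values of flagged spots were dropped; saturation affected 0 spots. Every ratio was signed as trained over control, then averaged per dye orientation, then over both, to 1 value per pool pair. Pool levels are channel intensities after Aquantile scaling, log2.

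Probes were named by unversioned RefSeq accession (25173 of 43603 probes). A gene is its brightest probe that was well above background on all 6 arrays in the trained or control channel. The share of probes well above background per channel and array was 54.3% to 81.2%. limma tested the 2 pair values against 0, two-sided, adjusted over all 15771 genes, with 1 residual and 4.14 prior degrees of freedom. The averaging and test were checked on simulated data.

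Members and lists were chosen with earlier results of these data known. Genes named are, per class, the up to 8 with the smallest unadjusted p, any that turn by over 0.2 on both sides of 0 without loess (0 did), and up to 3 per comparison list. Other genes were named after their values were seen, or to show more of a list or run, and only some are marked so. T2 and C2, and T3 and C3, are paired because they share arrays. Their number limits the precision.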

Additional observations from a re-analysis of the deposited data

How the results depend on the processing

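The 21 named members were recomputed under 18 settings, and 373 of 377 values kept their sign. The exceptions were pkp3a at -0.12 with median centring in place of loess, krt4 at -0.0055 with probes averaged, cldn19 at -0.0151 in pair 2 alone (0.6167 in pair 3 alone) and pkp3a at -0.0863 in pair 3 alone (0.2661 in pair 2 alone). Aquantile scaling, the fit of 4 pools and both changes of the probe filter returned the same log2 ratio for every named member they held. Those settings therefore add nothing to the count of kept signs, and most named members were picked for a small p. Calls at adjusted p under 0.05 were 0 among the members in each of the 14 settings with a test, and the lowest adjusted p of a member was 0.105, with the slide as a block. Over all genes there were 29 calls with 6 arrays and the pool pair as a random block and 15 with the slide as a block, fits that count arrays of the same RNA as more than 1 sample. With 4 pools and no replicate block there were 0.

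The keratin median was -0.12 with median centring, and 0.0548 in pair 2 and 0.2288 in pair 3 alone. The desmosome median was 0.075 with median centring, 0.13 with local backgrounds as deposited, 0.15 with probes averaged, 0.15 within slide 1, 0.2282 without technical repeats, and 0.25 and 0.31 in pairs 2 and 3 alone. The claudin median was -0.0456 with the deposited log ratios, 0.0284 with local backgrounds as deposited, 0.0321 with no filter on dim probes, 0.0649 with both channels above background, 0.0474 with the slide as a block, 0.0471 within slide 1 and 0.0734 within slide 2, and 0.0211 and -0.009 in pairs 2 and 3 alone. The cause of these shifts was not tested. With 1 pair left out or within 1 slide, values have no test. Signal near background limits cldn33b, cldn5a and cldn8.1.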
